A study of Mus musculus with 8 samples.

Results

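The Dsp-Lct nuclei described here were mature dentate granule neurons from the hippocampus of male mouse pups at postnatal day 21. They were selected on their RNA values in 11518 retained nuclei. A nucleus was taken when it held at least 2 UMIs (unique molecular identifiers, each standing for 1 captured RNA molecule) of Prox1, at most 1 UMI of Gad2 and UMIs of fewer than 2 of the 4 immature granule genes Igfbpl1, Sema3c, Draxin and Cd24a. In addition, the number of genes detected among Dsp, Lct, Tmem114, Gm11728, Gm42864, Npnt and Il1r1 had to exceed the number detected among Trhr, Ano2, Glis3, Chst9, Gmnc, Best3 and Trpc6 by at least 2. This gave 117 nuclei, which is 1.02% of all retained nuclei. They were 5.23% of the 2235 nuclei that met the Prox1, Gad2 and immature gene criteria, called mature granule nuclei here. The nuclei that met the mirror condition, called Trhr-Glis3 nuclei, numbered 592 and served as the comparison.

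The pups were wild-type C57BL/6J animals. Their dams received folic acid (FA) in the diet at 2 mg/kg (the MF group, the control diet) or 20 mg/kg (the HF group) from before mating through lactation, and entered the study as adults, at 8 weeks of age by the labels. RNA and chromatin accessibility (ATAC) were measured in the same nuclei with the 10x Genomics multiome assay, in 2 libraries per diet that are called MF1, MF2, HF1 and HF2. How many pups a library pooled, and from how many dams or litters, is not given. The p-values therefore measure the spread between these libraries, which may be partly technical. A difference between diets cannot be told apart from a difference between litters. MF1 gave 36 Dsp-Lct nuclei, MF2 gave 23, and both HF libraries gave 29. No library held many of them, and each level below therefore rests on a sum over 23 to 36 nuclei.

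Granule neurons are the principal cells of the dentate gyrus. They receive the main cortical input to the hippocampus and send mossy fibres to CA3, and the transcription factor Prox1 gives them their identity. Of the genes that chose the nuclei, Dsp encodes desmoplakin, which ties desmosomes to intermediate filaments, Lct the lactase of the intestinal brush border, Npnt the matrix protein nephronectin, and Il1r1 the type 1 receptor of interleukin-1. Of the genes on the other side, Trhr encodes the receptor of thyrotropin-releasing hormone, Ano2 a calcium-activated chloride channel, Glis3 a zinc finger transcription factor, Chst9 a sulfotransferase and Trpc6 a cation channel.

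The label of a mature granule neuron was checked against genes that had no part in the choice. Summed over 7 granule genes (C1ql2, Calb1, Bcl11b, Neurod2, Slc17a7, Dock10 and Rfx3), the level lay between 3657.4 and 4192.1 counts in every 1000000 UMIs (CPM) across the 4 libraries in Dsp-Lct nuclei and between 3658.6 and 4072.2 CPM in Trhr-Glis3 nuclei. In nuclei with CA1 markers it lay between 934.2 and 1085.9 CPM. Most of this sum in Dsp-Lct nuclei was Rfx3, at a mean of 2355.8 CPM against 347.1 CPM in CA1-marked nuclei. Slc17a7, which CA1-marked nuclei were picked to hold, was at 273.9 against 256.3 CPM. The rest of the 7 genes were also higher on average in Dsp-Lct nuclei. This sum does not separate granule neurons from oligodendrocyte-marked nuclei (2828.8 to 3617.2 CPM), which were picked by 4 or more oligodendrocyte genes and no Slc17a7. A sum of 7 genes of mature granule neurons lay between 3720.9 and 3961.6 CPM in Dsp-Lct nuclei, between 2719.1 and 2928.8 CPM in CA1-marked nuclei and between 706.5 and 863.6 CPM in oligodendrocyte-marked nuclei. Most of this sum was Ppp3ca, a calcineurin subunit gene common to neurons, at 3081.0 to 3545.2 CPM in Dsp-Lct nuclei and a mean of 2098.7 CPM in CA1-marked nuclei. Calb1 (181.6 against 47.1 CPM) and Plk5 (20.8 against 1.4 CPM) were higher than in CA1-marked nuclei on average, and Ntng1 (137.8 against 372.3 CPM), Rasgrp1 (60.9 against 194.3 CPM) and Smad3 (46.6 against 56.1 CPM) were lower. A sum of 10 genes of immature granule neurons was at 280.5 to 596.5 CPM in Dsp-Lct nuclei, below the 959.0 to 1572.6 CPM of nuclei selected as immature.

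Markers of other cells were read as sums over each list. The 5 CA1 genes summed to 60.0 to 94.3 CPM in Dsp-Lct nuclei, 61.3 to 80.0 CPM in Trhr-Glis3 nuclei and 316.6 to 376.9 CPM in CA1-marked nuclei. The 6 oligodendrocyte genes summed to 124.1 to 225.1 CPM. The 5 astrocyte genes summed to 1001.2 to 1206.4 CPM, against 770.1 to 1002.1 CPM in Trhr-Glis3 nuclei, and 2 of the 3 above 20 CPM were higher in all 4 libraries. Most of this was Slc4a4, a bicarbonate transporter gene found in 100% of Dsp-Lct nuclei (mean 990.4 CPM). The 5 genes of oligodendrocyte precursors summed to 627.3 to 1072.9 CPM, most of it Tnr (mean 747.5 CPM), against 651.2 to 838.6 CPM. The 5 vascular genes summed to 2.5 to 13.8 CPM, with Cldn5 and Vtn at 0. The 5 choroid plexus genes summed to 77.2 CPM in HF1 and 6.0 to 15.3 CPM in the other libraries, with Clic6 and Otx2 at 0 and Ttr at 57.9 CPM in HF1, and Trhr-Glis3 nuclei of HF1 held 92.0 CPM. The sum of 5 inhibitory genes lay between 118.6 and 363.9 CPM, against 325.3 to 683.1 CPM in Trhr-Glis3 nuclei. Erbb4 made up most of the latter, at 202.6 to 552.5 CPM, and it is no marker of inhibitory neurons alone here, since 99.8% of oligodendrocyte-marked nuclei held it. In MF1 the Dsp-Lct nuclei stood apart in 2 lists, with 265.2 CPM of 5 microglia genes (54.3 to 77.2 CPM in the other libraries) and 940.9 CPM of 5 erythroid genes (162.7 to 240.1 CPM). The erythroid genes were raised in the MF1 library as a whole, with 822.2 CPM in its Trhr-Glis3 nuclei and 3207.1 CPM in its undecided granule nuclei. The median Dsp-Lct nucleus held 9262 UMIs and 22775 ATAC counts, against 9846 and 24697.5 in Trhr-Glis3 nuclei. At least 2 of the CA1 genes were detected in 17 Dsp-Lct nuclei (14.5%) and 62 Trhr-Glis3 nuclei (10.5%), and 28 Dsp-Lct nuclei had a doublet score over 0.05. Pairs of libraries shared 13 to 27 barcodes, and none of the barcodes of Dsp-Lct nuclei was shared.

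The difference between the numbers of detected genes formed a range without a gap, and the selection cut through it. Of the 2235 mature granule nuclei, 1526 (68.3%) had a difference of -1 to 1 and belonged to neither type. These undecided nuclei held 870.0 to 1173.6 CPM of the 6 oligodendrocyte genes, against 97.7 to 300.8 CPM in Trhr-Glis3 nuclei. Slc17a7 was detected in 69.8% of them, against 91.5% of Dsp-Lct and 88.7% of Trhr-Glis3 nuclei. Other cells may thus be among the 2235 nuclei, and how many was not tested. Within the Dsp-Lct nuclei 87 lay exactly at the limit of 2, while 25 had a difference of 3, 4 a difference of 4 and 1 a difference of 5. The 270 nuclei just outside, at a difference of 1, held 70.3 CPM of Dsp, 35.5 CPM of Lct and 97.8 CPM of Npnt. The 87 nuclei just inside held 96.9, 41.6 and 119.7 CPM of the same genes. These values follow from the rule and carry no test. Of the 117 nuclei, 93 also held at least 1 of the 7 genes on the Trhr-Glis3 side.

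**Figure D1:**
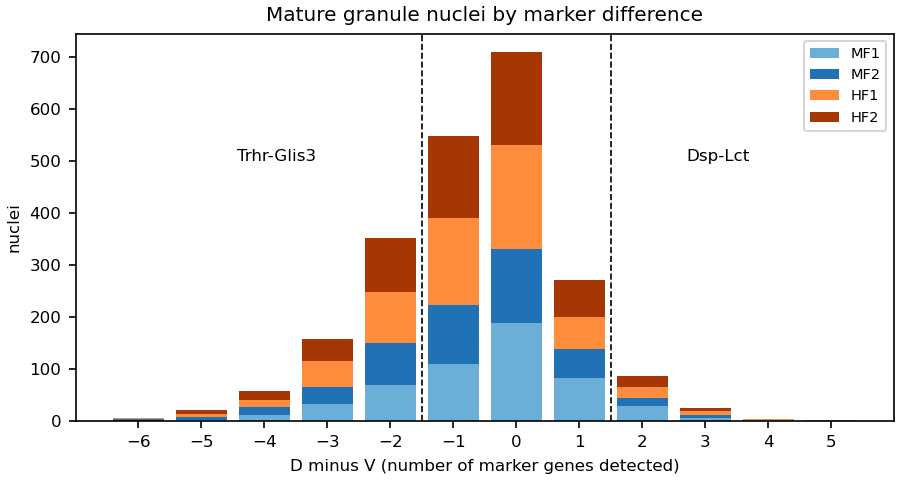
The bars give the number of mature granule nuclei (y axis) by the number of detected Dsp-Lct genes minus the number of detected Trhr-Glis3 genes (x axis), stacked by library, and the dashed lines mark the limits of both types. The counts form a single peak at 0 with 709 nuclei, and the 117 Dsp-Lct nuclei make up its right tail. Nuclei between the limits may include other cells.

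The genes that chose the nuclei differed as the choice required, by an amount that varied from gene to gene. The level of Dsp in Dsp-Lct nuclei was 107.1, 101.3, 82.7 and 102.5 CPM in the order MF1, MF2, HF1, HF2, and in Trhr-Glis3 nuclei 14, 17.2, 16.8 and 11.0 CPM. Lct was at 61.2, 48.8, 33.1 and 48.3 CPM against 14, 6.5, 7.2 and 8.7 CPM. For both genes all 4 Dsp-Lct values lay above all 4 Trhr-Glis3 values. The mean log2 ratio of CPM plus 1 over the 4 libraries was 2.67 ± 0.39 (SD, n = 4) for Dsp and 2.30 ± 0.32 for Lct. Tmem114, a membrane protein gene, had the largest ratio on this side, 3.06 ± 0.41, with 46.9 to 58.6 CPM against 4.1 to 9.3 CPM. Npnt was at 163.2, 127.6, 77.2 and 114.6 CPM in Dsp-Lct nuclei and at 30.2 to 44.3 CPM in Trhr-Glis3 nuclei. Il1r1 was at 102.0, 82.5, 66.2 and 48.3 CPM against 20.1 to 22.8 CPM. The unnamed transcripts Gm11728 and Gm42864 had log2 ratios of 2.14 ± 0.84 and 2.15 ± 0.62.

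The genes on the Trhr-Glis3 side fell into a group that was almost absent and a group that was reduced. Trhr had 0 UMIs in the 117 nuclei, against UMIs in 18.6% of Trhr-Glis3 nuclei and a mean level there of 30.7 CPM. Ano2 had 3 UMIs against 235, and Gmnc, a regulator of multiciliated cells, 2 against 142. As these genes counted against membership, their absence follows from the selection. Trpc6, Glis3 and Chst9 were still present. Trpc6 was at 76.5 to 102.5 CPM against 261.8 to 305.1 CPM (log2 ratio -1.70 ± 0.16), Glis3 at 190.0 to 317.2 against 432.1 to 586.3 CPM (-1.09 ± 0.33) and Chst9 at 110.3 to 187.6 against 175.3 to 303.8 CPM (-0.76 ± 0.19). Of these 3 genes only Chst9 had ranges that overlapped between the types, although within each library Dsp-Lct nuclei were lower. Best3, a bestrophin channel gene, had 7 UMIs against 167, most of them in HF2 (15.1 CPM against 20.1 CPM). Prox1 was at 385.4 CPM in Dsp-Lct and 346.9 CPM in Trhr-Glis3 nuclei.

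Shares of nuclei with a UMI showed the same order and can be set against a cell type that should lack these genes. Dsp was detected in 77.8% of Dsp-Lct nuclei, 13.3% of Trhr-Glis3 nuclei and 0.8% of oligodendrocyte-marked nuclei, whose median depth was 4757 UMIs. For Lct the shares were 45.3, 8.8 and 0.6%, and for Npnt 78.6, 28.9 and 1.8%. Glis3 was detected in 59.0, 95.8 and 5.3%, and Trpc6 in 35.9, 91.0 and 1.6%. The shares of Glis3 and Trpc6 in Dsp-Lct nuclei were thus well above those in oligodendrocytes.

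**Figure D2:**
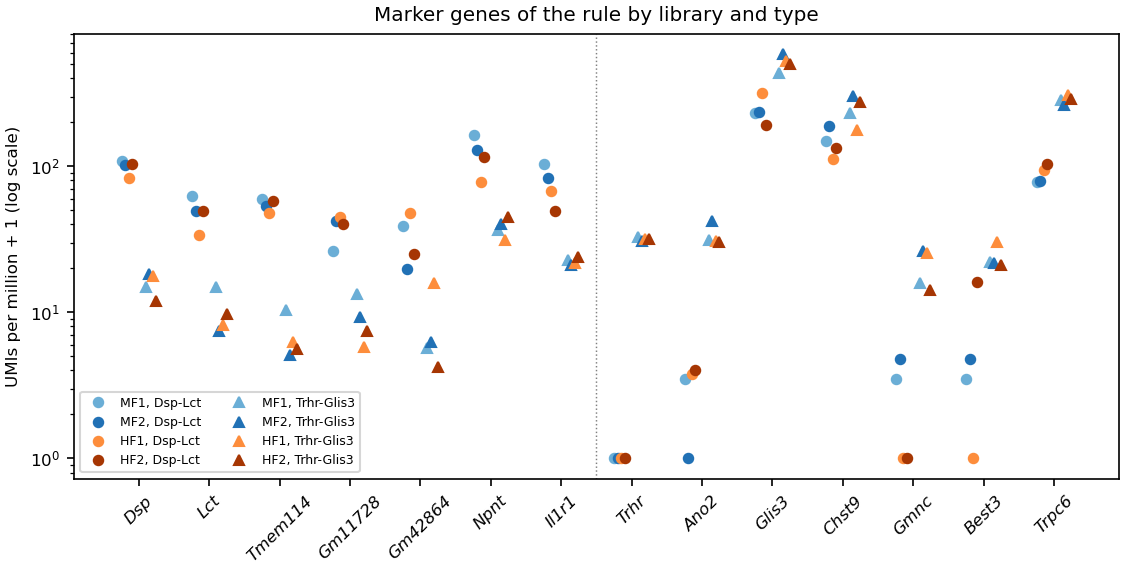
Each point is the level of a gene that chose the nuclei in 1 library, in CPM plus 1 on a log axis, with circles for Dsp-Lct and triangles for Trhr-Glis3 nuclei. Circles lie above triangles for the 7 Dsp-Lct genes, while Trhr is at 0 CPM in all 4 Dsp-Lct sums and Glis3 remains at 190.0 CPM or more.

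Genes that had no part in the rule were compared the same way, as levels without a test, since the types were cut from the same RNA values. Of 7211 genes with at least 20 CPM in either type, 7 (0.0971%) were over 2-fold higher in Dsp-Lct nuclei in each of the 4 libraries and 8 (0.111%) over 2-fold lower. Of these, 6 of the higher and 3 of the lower genes belonged to the rule. The 6 others were Coa6 on the higher side and Kcnmb2, Scn9a, Tox3, Lgmn and Col25a1 on the lower side. In all, 952 genes (13.2%) were higher and 714 (9.9%) lower in all 4 libraries.

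Among the lower genes, Kcnmb2, an auxiliary subunit of calcium-activated potassium channels, had 1 UMI in all Dsp-Lct nuclei against 189 UMIs in Trhr-Glis3 nuclei. Its mean level was 0.9 against 26.3 CPM, so that it passed the minimum of 20 CPM through Trhr-Glis3 nuclei alone. The same held for Scn9a (means of 9.7 against 45.9 CPM), Tox3 (7.3 against 39.5 CPM) and Lgmn (9.1 against 24.8 CPM). Scn9a, the voltage-gated sodium channel Nav1.7, was at 10.2, 11.3, 8.3 and 9.0 CPM in MF1, MF2, HF1 and HF2 against 36.5, 67.5, 36.9 and 42.5 CPM, a log2 ratio of -2.09 ± 0.30 (SD, n = 4). Tox3, an HMG-box transcription factor gene, was at 12.7, 7.5, 2.8 and 6.0 CPM against 35.7, 56.3, 42.6 and 23.3 CPM (-2.37 ± 0.96). All 4 Dsp-Lct values lay below all 4 Trhr-Glis3 values for Kcnmb2, Scn9a and Tox3. Col25a1, a transmembrane collagen, was the most abundant of the group, at 89.2 to 168.8 CPM against 225.4 to 370.7 CPM, and its ratio of -1.19 ± 0.09 varied least between libraries. Lgmn, the lysosomal protease legumain, was at 3.8 to 15.3 CPM against 13.0 to 42.7 CPM (-1.36 ± 0.17), and it was also detected in 46.9% of oligodendrocyte-marked nuclei. Lower in all 4 libraries, but by less than 2-fold in at least 1 of them, were Adamts6, Recql5, Col19a1, Slc35f5, Cobll1, Cdh13 and Zfp516. Of these Cdh13, the membrane-anchored T-cadherin, was the most abundant, at 81.6 to 157.6 CPM against 240.9 to 316.3 CPM (-1.16 ± 0.29). It was the only one of them to pass the minimum in both types.

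On the higher side the differences were smaller. Coa6, an assembly factor of cytochrome c oxidase, was at 22.9, 22.5, 27.6 and 18.1 CPM against 10.1, 7.7, 12.5 and 6.9 CPM, a log2 ratio of 1.23 ± 0.16. Ackr3, an atypical receptor of the chemokine CXCL12, was at 11.3 to 30.3 CPM against 5.3 to 12.0 CPM (1.26 ± 0.21). Prmt1, an arginine methyltransferase, was at 24.1 to 48.4 CPM against 9.6 to 22.0 CPM (1.14 ± 0.12). The transcription factor Stat3 was at 35.9 to 48.8 CPM against 13.9 to 24.9 CPM (1.09 ± 0.43), and the formin Inf2 at 48.3 to 84.1 CPM against 23.7 to 44.3 CPM (1.10 ± 0.40). The others of the 12 highest genes were Cstf2t, Map2k7, Eif3g, Snhg6, Pfn1, Yipf6 and Chmp1a, with ratios of 0.76 to 1.06. Only Inf2 and Pfn1 passed the minimum of 20 CPM in both types, and the rest passed it through Dsp-Lct nuclei alone. Most of these 12 genes are used by many cell types, and 11 of them had over 5% of oligodendrocyte-marked nuclei with a UMI, the exception being Ackr3 with 1.4%.

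**Figure D3:**
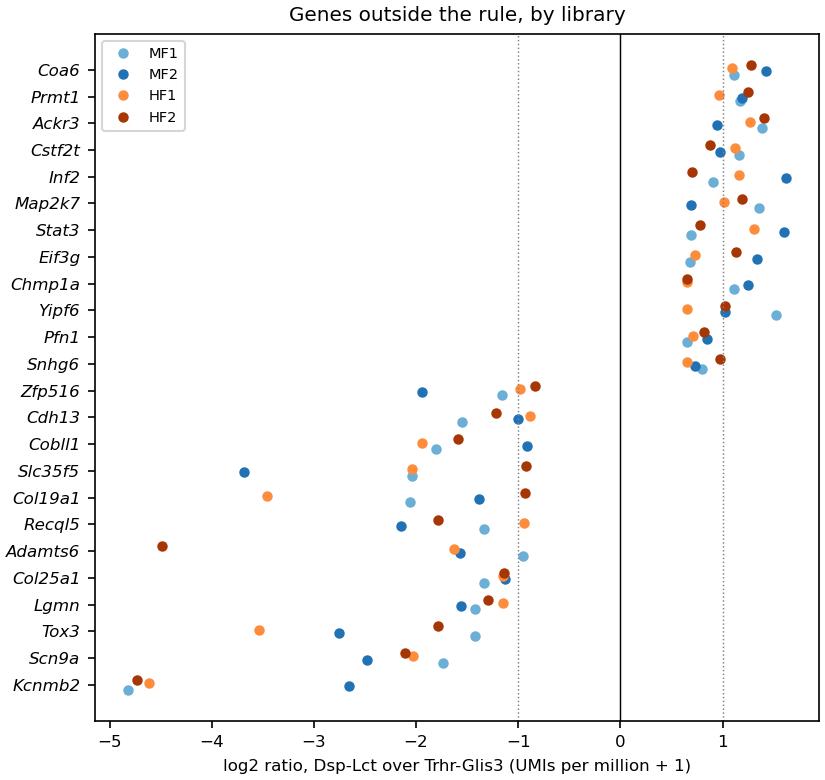
Each point is the log2 ratio of CPM plus 1 in Dsp-Lct over Trhr-Glis3 nuclei in 1 library, for the 12 highest and 12 lowest genes that had no part in the rule. Kcnmb2 lies lowest, with a mean of -4.21, and on the higher side the means lie between 0.76 and 1.26.

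Gene groups that describe what a granule neuron expresses were read by counting members that were higher or lower in all 4 libraries, beside the 13.2 and 9.9% of all genes and the median log2 ratio of all genes of 0.02. Of the 80 ribosomal protein genes above 20 CPM, 37 were higher and 0 lower in Dsp-Lct nuclei, with a median log2 ratio of 0.35. Rpl13 was at 291.3 CPM against 216.3 CPM and Rpl41 at 261.6 against 179.6 CPM. Of 77 genes of oxidative phosphorylation, 24 were higher and 0 lower, with a median of 0.25, for example Cox4i1 at 298.8 against 230.9 CPM. Coa6, the cytochrome c oxidase factor named above, stood outside that list.

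Channels and adhesion molecules were mixed. Of 39 potassium channel genes 3 were higher and 7 lower, among the latter Kcnmb2, while the abundant A-type channel gene Kcnd2 was at 4377.4 and 4108.7 CPM. Of 7 genes in a list of voltage-gated sodium channels without Scn9a, 3 were higher and 0 lower. One of these was the auxiliary subunit Scn3b, at 164.6 against 108.9 CPM (0.59 ± 0.16), and another Scn8a at 450.1 against 374.0 CPM. Of 11 calcium channel genes 0 were higher and 4 lower, among them Cacna2d3 with a ratio of -0.51. Of 18 cadherin genes 1 was higher (Cdh8, 0.34 ± 0.15) and 5 were lower, with a median of -0.27. Of 26 genes of axon guidance 5 were higher and 5 lower, with Epha7 at 0.50 ± 0.26 and the netrin receptor Unc5c at -0.59.

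Transmitter receptors differed by small amounts. Of 15 ionotropic glutamate receptor genes 2 were higher, among them Gria2 (0.15 ± 0.01), and 3 lower, among them Grik2 (-0.39). Of 10 GABA-A receptor genes 2 were higher and 3 lower, among them Gabra2 (-0.54 ± 0.07). Of 6 metabotropic glutamate receptor genes 0 were higher and 2 lower, Grm5 and Grm7, both with a log2 ratio of -0.15. Of the 7 granule genes 3 were higher and 1 lower (median 0.07), of the 7 mature granule genes 2 were higher and 3 lower (median -0.24), and of 9 immature granule genes above the floor 1 was higher and 0 lower (median 0.33). Within these lists Bcl11b, a transcription factor of granule neurons, was higher by 0.52 ± 0.06, and Neurod2 by 0.77. Ntng1, which encodes the adhesion molecule netrin-G1, had a ratio of -1.02 ± 0.76. Of the receptors of glucocorticoids and mineralocorticoids, Nr3c2 was at 1309.3 against 1031.1 CPM (0.35 ± 0.09) and Nr3c1 at 96.8 against 93.0 CPM.

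The partners of the genes that chose the nuclei did not share their difference. Of the desmosome list only Pkp2, Pkp4 and Dsp passed 20 CPM, and Pkp4 was lower (-0.47 ± 0.29) while Pkp2 was at 0.28 ± 0.55. The co-receptor of Il1r1, Il1rap, was at 683.6 and 602.1 CPM (0.17 ± 0.43), and the related Il1rapl1 was lower (-0.27 ± 0.10). The nephronectin receptor subunit Itga8 was lower (-0.29 ± 0.16). Of 4 genes known from the ventral dentate gyrus and above the floor, 0 were higher and 2 lower, with a median of -0.55. Tox3 was the lowest, and it passed the floor through Trhr-Glis3 nuclei alone (7.3 against 39.5 CPM), so it could only count as lower. The types were cut from the same RNA values, so the direction of this list carries no test. Of the dorsal genes only Spata13 (0.48 ± 0.55) and Gsg1l (-1.01 ± 0.75) could be read. Erbb4, listed as an inhibitory marker but also found in oligodendrocyte-marked nuclei, was at 107.3 against 350.4 CPM (-1.86 ± 1.2), and Gad1 at 52.3 against 47.1 CPM.

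Chromatin accessibility gave a readout of the same nuclei that the rule had not used. ATAC counts were summed per library and type over regions with a peak in all 4 libraries, and both types were compared with edgeR, with the library as a block. Of 42510 regions tested, 0 (0%) passed a false discovery rate (FDR) of 0.05, and the smallest FDR was 0.9748. At an unadjusted p under 0.05 there were 2103 regions, and DESeq2 called 0 as well. In simulated data 35% of 2-fold changes between types were recovered, so most changes of that size would be missed. The largest gaps were regions without a count in Dsp-Lct nuclei. An intergenic region at chr6:93573706-93574644 (build GRCm38), whose nearest gene is Magi1 at 100811 bp, and one at chr12:29391518-29392439, nearest to Myt1l at 135945 bp, each had 0 counts against 121. No fold is given, because ATAC counts came mostly in pairs (81.1 to 83.1% of entries were even), so that fewer independent fragments than counts stand behind them. On the other side the region with the smallest p was at chr3:18640032-18640954, with 43.6, 76.6, 56.0 and 80.0 CPM of ATAC counts against 29.2, 37.9, 29.4 and 35.2 CPM (log2 0.94 ± 0.22 SE, edgeR FDR 0.9748). The groups did not overlap there, but the difference did not pass the test over all regions.

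Counts were therefore also summed over whole gene loci, from 2 kb before the start to the end of the gene, a comparison added after the region results were seen. Of 18523 loci, 2 (0.0108%) passed an FDR of 0.05 and 1105 had an unadjusted p under 0.05. In addition, 1255 loci (6.78%) were higher and 1332 (7.19%) lower in Dsp-Lct nuclei in all 4 libraries. The lower locus was Sorcs3, which encodes a sorting receptor of the VPS10 family in neurons. Its accessibility in Dsp-Lct nuclei was 59.1, 71.2, 79.8 and 73.4 CPM in MF1, MF2, HF1 and HF2, and in Trhr-Glis3 nuclei 145.9, 127.0, 116.6 and 121.1 CPM. All 4 Dsp-Lct values lay below the lowest Trhr-Glis3 value, with a log2 difference of -0.85 ± 0.15 (SE, edgeR FDR 0.001981). Without MF1 the difference was -0.71 with an edgeR FDR of 0.307. The 5 regions of the locus that could be tested one by one were all lower, and none passed the test. The RNA of Sorcs3 had a mean log2 ratio of -1.31, but not the same sign in every library (-1.67, -3.03, 0.10 and -0.65). It was detected in 22 Dsp-Lct nuclei and 189 Trhr-Glis3 nuclei. The other locus was the predicted gene Gm10800 (log2 difference 0.26 ± 0.04, edgeR FDR 0.000297), a repeat-like sequence with near copies elsewhere in the genome, so its counts cannot be placed with certainty. Without HF1 its FDR was 0.314.

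The loci of the genes that chose the nuclei could be read in accessibility, which the rule had not used. Of the 7 loci on the Dsp-Lct side 5 were higher, with a median log2 difference of 0.31, beside 9162 of all 18523 loci and a median of 0, and none passed the test. Lct came closest, at 89.3, 86.2, 63.1 and 104.4 CPM in Dsp-Lct nuclei against 62.8, 51.1, 52.5 and 44.5 CPM. It was higher in each library and the groups did not overlap, with a log2 difference of 0.71 ± 0.18 (SE, edgeR FDR 0.205). Npnt was at 74.9, 33.7, 63.1 and 45.7 CPM against 31.9 to 35.5 CPM, so that MF2 lay within the range of Trhr-Glis3 nuclei (0.65 ± 0.23, edgeR FDR 0.7212). Dsp was at 17.9 to 54.3 CPM against 23.9 to 36.0 CPM (0.37 ± 0.25, edgeR FDR 0.9219), with HF2 as the library in which Dsp-Lct nuclei were lower. The Dsp value ranged from 0.25 to 0.62 when a library was left out. Il1r1 (-0.16 ± 0.16) and Tmem114 (-0.03 ± 0.25) were not higher. On the Trhr-Glis3 side the median of 6 loci was 0.01, with Gmnc lowest (-0.74 ± 0.36, edgeR FDR 0.8321, and -1.34 without MF1 to -0.47 without MF2) and Glis3 at 0.04 ± 0.09. Unlike its RNA, the Chst9 locus was higher in Dsp-Lct nuclei in each library (0.22 ± 0.12, edgeR FDR 0.8577). So was an intron region of Glis3 (0.59 ± 0.24, edgeR FDR 0.9748). The Trhr locus had too few counts to be tested.

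**Figure D4:**
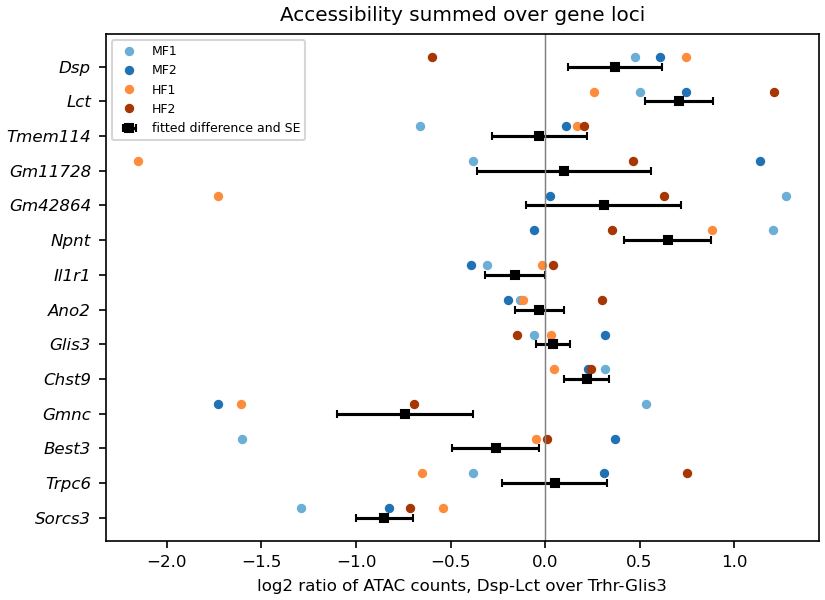
The large points with bars give the fitted log2 difference in accessibility of a gene locus, Dsp-Lct over Trhr-Glis3 nuclei, with its SE, and the small points the 4 libraries. Sorcs3 lies lowest, at -0.85, and passed the test, while Lct lies highest, at 0.71, and did not.

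Sequences are shown for 4 tested regions of these loci, because they lie in genes that chose the nuclei or, for Sorcs3, in the locus whose summed accessibility passed the test. None of the 4 regions passed it alone. They were picked by the smallest p, 1 of 4 tested regions for Lct, 1 of 2 for Npnt and 2 of 5 for Sorcs3. Their differences are therefore selected. All 4 windows are the middle 200 bases of an intronic region, on the plus strand of GRCm38, and hold no annotated exon. Capitals mark matches to a set of 8 short motifs searched on both strands. The region of Lct lay at chr1:128324515-128325437 (log2 difference 1.06 ± 0.36 SE, higher in each library) and that of Npnt at chr3:132897625-132898561 (0.85 ± 0.31, higher in each library), and both had an edgeR FDR of 0.9748. The regions of Sorcs3 lay at chr19:48260422-48261338 (-0.93 ± 0.46, edgeR FDR 0.9748) and chr19:48463254-48464236 (-1.02 ± 0.69, edgeR FDR 0.9797).
Lct, chr1:128324877-128325076: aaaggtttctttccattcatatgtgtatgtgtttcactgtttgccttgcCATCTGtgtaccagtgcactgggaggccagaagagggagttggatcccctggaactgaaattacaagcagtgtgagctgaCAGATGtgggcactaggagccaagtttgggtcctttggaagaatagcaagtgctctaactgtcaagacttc
Npnt, chr3:132897994-132898193: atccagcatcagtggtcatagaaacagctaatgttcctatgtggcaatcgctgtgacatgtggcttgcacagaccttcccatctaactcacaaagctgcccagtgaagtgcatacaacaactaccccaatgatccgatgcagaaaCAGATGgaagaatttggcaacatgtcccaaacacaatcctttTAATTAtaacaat
Sorcs3, chr19:48260781-48260980: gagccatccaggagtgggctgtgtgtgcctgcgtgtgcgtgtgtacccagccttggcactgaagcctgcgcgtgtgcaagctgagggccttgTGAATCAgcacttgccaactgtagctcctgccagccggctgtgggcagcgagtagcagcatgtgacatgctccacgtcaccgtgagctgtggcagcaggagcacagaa
Sorcs3, chr19:48463646-48463845: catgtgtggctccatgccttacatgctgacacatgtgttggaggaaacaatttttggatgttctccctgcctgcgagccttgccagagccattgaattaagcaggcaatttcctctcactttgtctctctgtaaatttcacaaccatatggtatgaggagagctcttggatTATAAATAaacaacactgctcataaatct
The E-box CAGATG, read by bHLH factors of neurons such as those of the Neurod family, occurred 2 times in the Lct window and 1 time in the Npnt window, and in 24.9% of all 42503 windows of this length at the tested regions. The homeobox core TAATTA in the Npnt window was found in 4.1% of windows, and the MEF2 motif TATTTATA in the second Sorcs3 window in 1.1%. The pattern searched for AP-1, TGANTCA, is loose, as it allows any base in the middle. It was found in 7.1% of windows, and in the first Sorcs3 window it read TGAATCA. None of the 4 windows held the E-box CAGCTG, the nuclear receptor motif AGGTCA, or the motifs of CREB (TGACGTCA) and EGR (GCGTGGGCG). A match is a description of these letters and no evidence of binding.

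The next question was whether gene expression in Dsp-Lct nuclei differed between the maternal diets. UMIs were summed per library and the 2 HF sums were compared with the 2 MF sums in edgeR, with CPM on TMM-scaled library sizes. Sgcd, which encodes delta-sarcoglycan of the dystrophin complex, and Zfp804b, a zinc finger protein gene, were higher in HF, and no gene was called lower. These were 2 of 5863 genes (0.0341%) at an FDR under 0.05 and at least 1.2-fold, and 389 had an unadjusted p under 0.05. With any 1 library left out, the log2 fold change ranged from 2.03 to 2.87 for Sgcd and from 2.35 to 3.89 for Zfp804b. Such fits leave 1 library in a diet, so their calls are not read here. Both HF libraries lay above both MF libraries for 1048 genes (17.9%) and below them for 1077 (18.4%).

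Sgcd was at 127.4 and 110.2 CPM in MF1 and MF2 and at 878.3 and 484.2 CPM in HF1 and HF2. The groups did not overlap, with a log2 fold change of 2.51 ± 0.31 (SE, edgeR FDR 0.004922). Zfp804b was at 46.8, 16.3, 176.3 and 326.2 CPM (2.85 ± 0.42, edgeR FDR 0.01658). Both differences rested on few nuclei, and that of Sgcd mostly on single ones. Of the 284 Sgcd UMIs of HF1, 161 (56.7%) came from 1 nucleus and 86 from another, and of the 141 of HF2, 106 (75.2%) came from 1 nucleus. The highest nuclei of MF1 and MF2 held 11 and 7. The leading HF nuclei were large, with 24549 and 30330 UMIs, and held UMIs of 2 and 3 of the 5 CA1 genes. The leading nucleus of MF1 held 30473 UMIs and 3 CA1 genes with 11 UMIs of Sgcd, and that of MF2 held 13100 UMIs and 0 CA1 genes. Sgcd was detected in 13 nuclei of MF1 and 10 of each other library, and the median nucleus had none in any library. Of the 95 Zfp804b UMIs of HF2, 63 came from 1 nucleus with 20266 UMIs, and the 4 of MF2 came from 1 nucleus. The 57 of HF1 came from 8 nuclei, with 16 in the highest. Without the highest nucleus of each library, 10, 0, 41 and 32 Zfp804b UMIs remained in MF1, MF2, HF1 and HF2. MF1 and MF2 had 5 and 3 nuclei over 15000 UMIs, and HF1 and HF2 had 9 and 6. These nuclei held 30.0, 30.4, 56.4 and 37.9% of the UMIs of each sum. Without them the log2 fold change of Sgcd was -0.85 (edgeR FDR 0.9322) and that of Zfp804b 2.59 (edgeR FDR 0.905), and 0 of 3875 genes were called. Without the nuclei holding at least 2 CA1 genes the Sgcd value was 1.28 (edgeR FDR 0.7644), that of Zfp804b was 3.59 (edgeR FDR 0.003963), and 2 genes were called. The part of large nuclei or of RNA from CA1 neurons in these calls was not tested.

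Genes that followed in rank did not pass the test. On the higher side these were Nell1 (log2 1.87 ± 0.34, edgeR FDR 0.1308), Etl4 (2.04 ± 0.40) and Cntnap2, which encodes the axonal adhesion protein Caspr2 and was at 725.2, 934.5, 1713.3 and 2080.9 CPM (1.2 ± 0.24, edgeR FDR 0.1336). DESeq2 called Cntnap2 (adjusted p 0.006211), and edgeR did so without nuclei over a doublet score of 0.05 (2.52, FDR 6.9e-08). Its value ranged from 1.01 to 1.42 when a library was left out. Without nuclei holding 2 CA1 genes it was at 0.49 (edgeR FDR 0.8312), and without nuclei over 15000 UMIs at 0.45 (0.9422). For Cntnap2 too, the highest nucleus of each library held 29.2 to 56.3% of the UMIs. On the lower side they were the haemoglobin genes Hba-a1 (-2.19 ± 0.47) and Hbb-bs (-1.71 ± 0.46), the kinase inhibitor gene Camk2n1 (-0.94 ± 0.24), Rps18 (-1.19 ± 0.31) and Nenf (-1.46 ± 0.40). Hba-a1 was at 223.5, 73.5, 37.1 and 30.9 CPM, and in Trhr-Glis3 nuclei at 175.9 CPM in MF1 and 36.9 to 57.2 CPM in the other libraries. Without MF1, Hba-a1 was at -1.11 and Hbb-bs at -0.33, the smallest differences of both when a library was left out. Rps18 was at 257.3, 187.7, 123.7 and 72.1 CPM and was spread over nuclei, with UMIs in 34, 19, 20 and 16 of them and at most 9 in any. A Wilcoxon test with single nuclei as replicates, which treats nuclei of a library as independent, called 2 of 14517 genes, Rps18 and Hbb-bs.

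**Figure D5:**
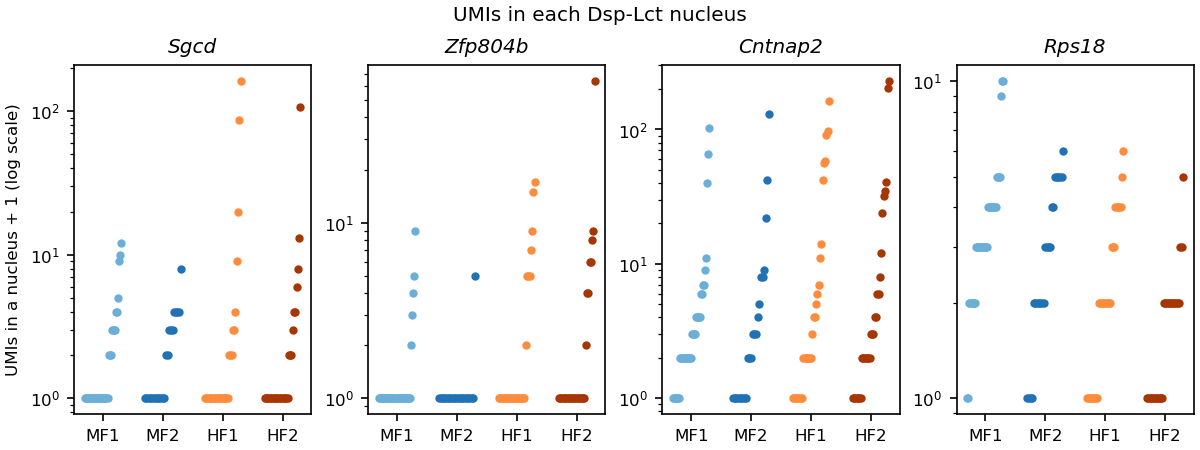
Each point is a Dsp-Lct nucleus, with the UMIs of a gene plus 1 on a log axis (y axis) by library (x axis), for Sgcd, Zfp804b, Cntnap2 and Rps18. Single nuclei with 161 and 106 UMIs of Sgcd stand above the rest in HF1 and HF2, whereas Rps18 has no nucleus above 9 UMIs.

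None of the ribosomal protein genes passed the test by diet, and the genes that did not overlap between diets all lay lower in HF. The share of ribosomal protein genes among the UMIs of Dsp-Lct nuclei was 1.55 and 1.2% in the MF libraries and 1.09 and 0.76% in the HF libraries. Both HF libraries lay below both MF libraries, by little between MF2 and HF1. Of the 80 genes tested, 44 were below in both HF libraries and 0 above, beside 18.4 and 17.9% of all genes. The median log2 fold change was -0.45, against -0.01 over all genes tested, 0 genes were called and 19 had an unadjusted p under 0.05. Rplp1 had a log2 fold change of -0.69 ± 0.25 and Rpl13 of -0.54 ± 0.24 (edgeR FDR 0.6485 and 0.7364). The spread between libraries of 1 diet in the mean log2 level of these genes was 0.30 (pooled SD), while the library means were 7.47 (MF1), 7.19 (MF2), 7.12 (HF1) and 6.6 (HF2), and the median stayed between -0.70 and -0.26 when each library was left out in turn. In Trhr-Glis3 nuclei the share was 1.21, 0.76, 1.09 and 0.56%, and the median difference in diet response between the types was -0.25, with 0 genes called. The study of these samples had named translation genes in excitatory neurons. It had also named ribosomal protein genes by diet in its immature and mature dentate neurons. These came from the same libraries, so the direction of this list is not independent evidence. Of 77 genes of oxidative phosphorylation 4 were above and 14 below, with a median of -0.14. The number below was close to the 18.4% of all genes, and fewer than the 17.9% of all genes were above. Medians of further lists went both ways. Of 3 oligodendrocyte genes tested 3 were below (median -0.86), with Mobp at 106.6 and 106.1 CPM in MF against 61.9 and 54.9 CPM in HF (edgeR FDR 0.6485), and their median interaction was -1.54. Of 7 immature granule genes 2 were below and 0 above, with a median of -0.56, too few to set against the share of all genes. In the other direction, of 6 mature granule genes tested 3 were above and 0 below, with a median of 0.33. None of these genes was called, and their part in the level of the ribosomal protein genes was not tested.

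The 7 genes on the Dsp-Lct side are not read by diet, since nuclei of both diets had to hold them. Of the neuronal lists no gene was called, and their counts are read against the 17.9% of all genes above and 18.4% below. Of 3 inhibitory genes 0 were above and 1 below, with a median of -0.61. Of 13 ionotropic glutamate receptor genes 7 were above and 1 below, with a median of 0.24 and 1 at an unadjusted p under 0.05. Of 16 cadherin genes 7 were above and 2 below, with a median of 0.33 and 5 at an unadjusted p under 0.05, and Cdh18 had the largest value (1.72 ± 0.44, edgeR FDR 0.301). Of 32 potassium channel genes 8 were above and 2 below, with 6 at an unadjusted p under 0.05 and Kcnd2 the highest in level (0.25 ± 0.25). Of 8 folate and one-carbon genes tested 2 were above and 2 below, with a median of 0.06 and values from -0.63 ± 0.37 (Mat2b) to 0.61 ± 0.46 (Mthfd1). The abundant Ahcyl2 and Mat2a were at 0.08 ± 0.22 and 0.14 ± 0.27, and no gene was called. Of 8 genes of DNA methylation 1 was above and 2 were below, with Dnmt3a at 0.02 ± 0.28. Of the genes named in the study for the diet, Cmss1 was at -0.76 ± 0.35 (edgeR FDR 0.7458), Filip1l at -1.25 ± 0.54 (0.7208), Jph1 at 0.23 ± 0.23 (0.896) and Tpt1 at -0.20 ± 0.25 (0.9363). Without HF2, Cmss1 was at -1.63 and Filip1l at -2.88, and without HF1 at -0.19 and -0.44.

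The diet response was then compared between both types with an interaction term. It differed for 5 of 8784 genes (0.0569%), with 456 at an unadjusted p under 0.05, and all 5 were higher in HF relative to MF in Dsp-Lct nuclei more than in Trhr-Glis3 nuclei. Besides Sgcd and Zfp804b these were Cntnap2, Nell1, a secreted protein gene, and Galntl6, a gene of the GalNAc-transferase family. Cntnap2 was at 1288.4, 1361.3, 1148.3 and 1400.1 CPM in the Trhr-Glis3 nuclei of MF1, MF2, HF1 and HF2, where the diets overlapped, and its interaction was 1.27 ± 0.17 (SE, edgeR FDR 0.002643). Galntl6 was at 283.3, 673.4, 1085.5 and 1428.5 CPM in Dsp-Lct nuclei and at 744.2, 707.6, 572.5 and 701.8 CPM in Trhr-Glis3 nuclei (1.69 ± 0.28, edgeR FDR 0.01505). Without MF1 the interaction was 1.04 for Galntl6 and 1.78 for Nell1, and neither was called (edgeR FDR 0.07962 and 0.1339). Without nuclei over 15000 UMIs, 4 of these genes could be tested and none was called by edgeR, with Sgcd at -0.86. Nell1 had too few UMIs then.

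Accessibility by diet in Dsp-Lct nuclei gave 0 of 17622 regions (0%) at an FDR under 0.05 by edgeR, with 688 at an unadjusted p under 0.05 and 0 calls by DESeq2. The region with the smallest p, at chr11:119857756-119858673 over a coding exon of Rptor, had 2, 1, 13 and 26 counts in MF1, MF2, HF1 and HF2 (log2 3.67 ± 0.84 SE, edgeR FDR 0.9999). On the lower side the smallest p was that of an intergenic region at chr10:126815474-126816339, 52088 bp from Atp23, with 20, 22, 5 and 0 counts (-2.92 ± 0.81). Its log2 value ranged from -7.42 to -1.92 when a library was left out. These sums rest on 23 to 36 nuclei per library. In simulated data 11% of 2-fold changes by diet in regions were recovered, so most changes of that size would be missed.

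The share of Dsp-Lct nuclei was compared last. They made up 1.24% of retained nuclei in MF1 (95% exact binomial interval 0.87 to 1.72), 1.02% in MF2 (0.65 to 1.53), 0.84% in HF1 (0.56 to 1.2), and the HF2 value was 1.0% (0.67 to 1.43). The intervals overlap. The mean was 1.13 ± 0.15% in MF and 0.92 ± 0.12% in HF (SD, n = 2). The difference was -0.21 percentage points with an exact two-sided permutation p of 0.33, the smallest that 2 against 2 libraries can give. It ranged from -0.32 to -0.10 points when a library was left out, and was -0.06 points with a marker difference of 3 or more. Of both types together, Dsp-Lct nuclei made up 24.0% in MF1 against 14.2% in MF2, 14.57% in HF1 and 14.65% in HF2. MF1 stood above the other 3 libraries. The difference between diets of -4.49 points (exact permutation p of 1) turned to 0.41 points without MF1.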

How the data were processed

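Single-nucleus multiome data of 4 hippocampus preparations (8 deposited samples, RNA and ATAC of each) were used. The authors deposited raw UMI counts per gene and raw counts per ATAC peak, made according to the submitters' processing notes with Cell Ranger ARC 2.0.1 on mm10, with peaks called in each library separately. The deposited counts were not normalized. The limits for retaining nuclei were 500 and 7000 detected genes, 1000 and 70000 ATAC counts, and less than 2% of UMIs from mitochondrial genes (11518 of 14297 passed). Nuclei were not removed as doublets in the main results, and scores came from Scrublet in scanpy 1.11.5 (expected rate 0.03). The total RNA counts per library were 39223075 to 47460174 UMIs before filtering, and the sums over Dsp-Lct nuclei were 266561 to 392181 UMIs, which sets their precision. Peaks that overlapped by at least 1 bp were joined to 253748 regions, and 154785 of them were covered by peaks of every library. The names of peaks were read as starting at 0.

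Sums per library were compared with edgeR 4.0.16 on R 4.3.3 (TMM, filterByExpr, quasi-likelihood F test, two-sided, Benjamini-Hochberg FDR over all features tested). Genes were called at an FDR under 0.05 and at least 1.2-fold, regions and interactions at an FDR under 0.05. The fits between types held the library as a block. The edgeR fits of genes and regions by diet, of regions and gene loci between types and of the interaction were tested on simulated data. Known changes were placed in the more abundant features. In that order, 58, 11, 35, 90 and 29% of 2-fold changes were recovered. For 4-fold changes the values were 94, 68, 88, 100 and 92%. RNA differences between types carry no test, because the same RNA values chose the nuclei. Alternatives were DESeq2 1.42.0, RLE size factors, other filters, each library left out in turn, a replicate block, other limits of the rule, and nuclei with CA1 genes or over 15000 UMIs left out, of which the last 2, the gene loci and every alternative for the genes between types were chosen after seeing the data. In the Dsp-Lct sums, the deviations of MF1 and HF1 from their diet means had a correlation of 0.065 in RNA and 0.019 in ATAC. These correlations gave no sign of pairing by replicate number, but sums over so few nuclei cannot exclude it. The ribosomal protein share did go with replicate number, higher in MF1 than in MF2 and in HF1 than in HF2, in both types. In the larger Trhr-Glis3 sums it was 1.21 and 0.76% in MF1 and MF2, and 1.09 and 0.56% in HF1 and HF2. The main fits by diet held no block for replicate number.

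The genes of the rule and the gene lists were chosen with earlier results of these data known. Named were the genes of the rule, the 12 highest and 12 lowest other genes between types by their smallest change, the regions with the smallest FDR, the called genes and regions or else the 5 with the smallest p in each direction, up to 4 of the most abundant members of each list, and 4 genes named by the study. Other list members and Sorcs3 were picked after their values were seen. Genes were placed by the GENCODE annotation of GRCm38, sequence came from the RefSeq copy of that build, and 200-base windows were searched for motifs. Some members of the lists are not reported here.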

Additional observations from a re-analysis of the deposited data

Results flagged for a closer look

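A difference in diet response between Dsp-Lct and Trhr-Glis3 nuclei, by the test of the interaction itself in edgeR, put 5 genes on the list for a closer look. The interaction was 1.27 on the log2 scale for Cntnap2, 2.11 for Sgcd, 2.66 for Zfp804b, 2.02 for Nell1 and 1.69 for Galntl6, each with both HF libraries above both MF libraries in Dsp-Lct nuclei. The edgeR FDR was 0.002643 for Cntnap2 and Sgcd, 0.008723 for Zfp804b, and 0.01505 for Nell1 and Galntl6. DESeq2 called Cntnap2 and Sgcd only. In HF1 and HF2 the highest nucleus held 56.7 and 75.2% of the Sgcd UMIs, and in HF2 the highest nucleus held 66.3% of the Zfp804b UMIs and 45.5% of the Nell1 UMIs. In the MF libraries, the highest nucleus of MF2 held 100% of the 4 Zfp804b UMIs and 85.7% of the Nell1 UMIs, and those of MF1 and MF2 held 70.6 and 77.6% of the Galntl6 UMIs, with 5 and 4 CA1 genes. Without MF1, Nell1 was at 1.78 and Galntl6 at 1.04 and were not called (edgeR FDR 0.1339 and 0.07962). Without nuclei over 15000 UMIs the values were 0.16 for Cntnap2, -0.86 for Sgcd, 2.39 for Zfp804b and 1.18 for Galntl6, and none of these passed an FDR of 0.05. Without nuclei that held at least 2 CA1 genes, Zfp804b was at 3.18 (edgeR FDR 0.000178), while Cntnap2 was at 0.38, Sgcd at 0.47, Nell1 at 2.77 and Galntl6 at 0.65 and were not called. The cause was not tested.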

How the results depend on the processing

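The number of diet genes in Dsp-Lct nuclei was 2 with RLE size factors and without a minimum change and 3 with DESeq2. It was 35 without a filter on low counts, 29 without nuclei over a doublet score of 0.05, 5 with Prox1 at 1 UMI or more, 0 with a marker difference of 3 or more and 0 without nuclei over 15000 UMIs, and it ranged from 22 (without HF1) to 33 (without HF2) when a library was left out (30 without MF1, 28 without MF2), where the lone library of a diet was assumed to vary like the other diet. With the replicate number as a block, 1 gene was called, Sgcd (edgeR FDR 0.02962). Zfp804b then had an FDR of 0.2069. The correlations between libraries neither supported nor excluded such a block, while the ribosomal protein share went with replicate number. Diet regions ranged from 0 to 1 when a library was left out (1 without MF2 and 1 without HF1). Regions between types were 3 when all regions with a total of at least 10 counts were tested. The interaction called 11 genes with RLE size factors, 2 with DESeq2, 11 without nuclei holding 2 CA1 genes, 3 without nuclei over 15000 UMIs, and 5 to 36 when a library was left out (15 without MF1, 14 without MF2, 36 without HF2). Genes past 2-fold between types, outside the rule, numbered 6, and 11 to 28 when a library was left out (11 without MF1, 20 without MF2, 28 without HF1, 16 without HF2), since fewer libraries then had to share the change. They numbered 28 without doublet scores over 0.05 and 16 without nuclei holding 2 CA1 genes. Gene loci numbered 2, 3 with RLE size factors, and 1 to 2 when a library was left out (1 without HF1). The median of the ribosomal protein genes by diet kept its direction in the alternatives run for it. These were RLE size factors, the replicate block and each library left out in turn.

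The direction turned as follows, and the cause was not tested. Without nuclei over 15000 UMIs, Sgcd by diet was at -0.85, its interaction at -0.86 and Tpt1 at 0.03. When a library was left out, the share of both types ranged from -9.39 to 0.41 points, Tpt1 from -0.45 to 0.02, and the loci of Tmem114 from -0.13 to 0.16, Gm11728 from -0.41 to 0.51, Gm42864 from -0.14 to 0.71, Ano2 from -0.15 to 0.03, Glis3 from -0.06 to 0.10, Best3 from -0.51 to 0.11 and Trpc6 from -0.22 to 0.23. The Ano2 locus was at 0.02 without nuclei holding 2 CA1 genes. The start region of Gm11728 was at -0.02 with DESeq2, -0.20 with the lower filter, -0.30 without doublet scores over 0.05, and from -0.49 to 0.44 with a library left out (-0.17 without HF2). The start region of Trpc6 ranged from -0.40 (without HF2) to 0.61 and was at -0.21 without doublet scores over 0.05, that of Gm42864 ranged from -0.11 (without MF1) to 0.70, an intron region of Best3 was at 0.05 without MF1, and an intron region of Glis3 at -0.19 with a marker difference of 3 or more. None of these passed a test in the main fit except Sgcd.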
